A study of Mus musculus with 21 samples.

Results

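SMB21 is a mouse cell line from a sonic hedgehog (SHH) medulloblastoma. Its cells were compared after 24 h with the histone deacetylase (HDAC) inhibitor quisinostat (JNJ) and after 24 h with DMSO, its solvent. The comparison has 6 of the 21 RNA-seq libraries of the series, 3 with JNJ and 3 with DMSO, and 14467 of the 24047 genes in the count table, those that passed a filter on low counts. The other libraries are 3 with each treatment for 2 h, which enter here for the comparison of times, and 9 of cells given short hairpin RNAs, which were not used here. Every group was grown in DMEM/F12 with B-27, and the 24 h groups differ by the labels in the drug alone. The dose is not given in the sources used here. All libraries come from 1 cell line, and the labels do not state whether a group's replicates are separate cultures. The p-values therefore cover no more than the spread among these libraries, and that spread may be technical.

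Histone deacetylases take acetyl groups off histones and other proteins, and inhibitors such as quisinostat leave acetyl groups in place and change the expression of many genes. SHH medulloblastoma arises from granule neuron progenitors of the cerebellum, which divide under the SHH signal and then leave the cell cycle to become glutamatergic granule neurons. Drugs of this class are known to raise Cdkn1a, an inhibitor of the cell cycle, and to stop division in many tumour lines.

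The 24 h libraries held 23461048 to 37888863 counted reads, and values are CPM (counts scaled to a fixed library total) on totals scaled by TMM, the trimmed mean of M-values. 3 counts in a library, the floor used here, equal 0.0776 to 0.118 CPM, and this floor covers counting error only. The line was checked against its markers. All 10 granule lineage markers were present, with a summed level of 2900.0 to 2921 CPM in the DMSO libraries and 1237 to 1704 CPM in the JNJ libraries, and 6 of the 10 fell. Microglia and blood markers summed to 0.0564 to 0.181 CPM with DMSO and 0.448 to 0.674 CPM with JNJ, with all 5 under 1 CPM throughout. The 5 endothelial markers summed to 0.875 to 9.89 CPM with DMSO and 3.68 to 5.09 CPM with JNJ, and Cldn5 had no count. The 5 fibroblast and mural markers summed to 3.33 to 6.24 CPM with DMSO and 9.22 to 25.6 CPM with JNJ, where Col1a1 made up most of the sum, while Col1a2 and Dcn stayed under 1 CPM. The 3 astrocyte markers summed to 7.17 to 9.59 CPM and 3.19 to 6.88 CPM, and the 4 oligodendrocyte markers to 4.23 to 5.64 CPM and 2.40 to 4.17 CPM.

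After 24 h with JNJ, 125 of 171 tested genes of DNA replication and mitosis fell. Of 180 tested genes of synapses, ion channels, neuropeptides and the granule lineage, 62 rose and 17 fell. Of 93 tested genes of other lineages, glia among them, 30 rose and 10 fell. Of the 14467 genes tested, 2613 rose (18.1%) and 2178 fell (15.1%), in all 33.1%, at an adjusted p under 0.05 by edgeR's quasi-likelihood test with Benjamini-Hochberg adjustment, which is the test behind every adjusted p given here. In 55.5% of genes the 2 groups of libraries had no overlap. Rises were larger than falls. The median rise was 1.67 on the log2 scale and the median fall -0.88, and 562 genes rose at least 8-fold against 22 that fell as far. Rises were most frequent among genes low in the solvent and falls among genes high in it. Genes near 0 have little room to fall, and some passed the filter only through another group. The part of level in these sizes was not tested. Libraries with the same replicate number deviated together at 24 h, and with a replicate block in the fit 3509 genes rose (24.3%) and 3124 fell (21.6%), among them all 4791 called without it. With the block and the 24 h libraries alone, the counts were 4565 and 4383. Changes are relative to the scaling: the called genes were 54.5% higher here and 68.3% higher when libraries were scaled by their totals, which moved the median of all genes from 0.01 to 0.17. Without JNJ replicate 3 the count that fell was 1426.

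The lists used here and below were chosen with earlier results of these data known, so their shares are descriptions and not independent support. Of 171 tested genes in 9 cell cycle lists, 125 fell (73.1%, against 15.1% of all genes), 4 rose and 42 were not called. The median log2 change of the 171 was -0.95, against 0.01 for all genes. Outside the list of kinase inhibitors and pocket proteins, the share of a list that fell ran from 47.1% to 88.9%. The lowest was that of the E2F, DREAM and B-MYB factors and the highest that of chromatin assembly and maintenance methylation. In bulk RNA, fewer cells of a kind and less RNA per cell cannot be told apart, and this holds for every group below. The count that fell was 98 to 131 under other scalings, filters, tests and fits without a block at the same threshold, and 100 to 123 when 1 library was left out.

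The genes that carry cells from G1 into S phase were the first group. Of 9 G1 cyclins and their kinases, 7 fell, none rose and 2 were not called (median -1.07; 1 rose with the block in the 24 h libraries alone). Ccne2, which encodes cyclin E2, the partner of CDK2 at S-phase entry, stood at 87.0, 69.2 and 108 CPM with DMSO and 15.5, 12.7 and 8.55 CPM with JNJ. The JNJ libraries were all far below the DMSO libraries, and the gene fell by 2.84 on the log2 scale (SE 0.25, adjusted p = 2.69e-05), the largest fall in the cell cycle lists. Ccnd1, the cyclin D1 gene that SHH signalling drives in granule progenitors, stood at 1021, 1115 and 1158 CPM with DMSO and 465, 273 and 493 CPM with JNJ. Its groups did not overlap either, and it fell (log2 -1.42, SE 0.24, adjusted p = 0.000908). Cdk6, a kinase partner of D cyclins, stood at 48.0, 39.4 and 41.5 CPM with DMSO and 16.9, 13.6 and 15.8 CPM with JNJ and fell to a similar extent (log2 -1.48, SE 0.34, adjusted p = 0.00511). Ccnd2 (log2 -0.24, adjusted p = 0.522) and Ccnd3 (0.43, 0.227), the other D cyclins, were not called, though Ccnd3 was called higher with the block in the 24 h libraries alone (0.00435). Both were named after their values were seen.

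Of 9 tested inhibitors of cyclin-dependent kinases and pocket proteins, 2 rose, 1 fell and 6 were not called (median 0.45; 5 rose with the block in the 24 h libraries alone). These shares, 22.2% and 11.1%, are near the 18.1% and 15.1% of all genes. Cdkn1a, which encodes p21, stood at 105, 59.9 and 99.3 CPM with DMSO and 257, 209 and 454 CPM with JNJ. Every JNJ library was well above every DMSO library, and the gene rose 3.49-fold (log2 1.80, SE 0.34, adjusted p = 0.00159). Rb1, the retinoblastoma protein gene, stood at 90.0, 64.0 and 71.7 CPM with DMSO and 122, 105 and 107 CPM with JNJ, a rise of 0.57 on the log2 scale (adjusted p = 0.0233). The Rb1 call was lost without DMSO replicate 2 (adjusted p = 0.111), DMSO replicate 3 (0.0830), JNJ replicate 1 (0.0844) or JNJ replicate 3 (0.0501). Its relative Rbl1, which encodes p107 and is itself an E2F target, fell (log2 -1.02, SE 0.20, adjusted p = 0.00194).

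Cdkn1c, which encodes p57, another inhibitor, was uneven between replicates. It stood at 2.504, 0.0259 and 0.0282 CPM with DMSO and 9.88, 0.352 and 1.26 CPM with JNJ. Replicate 1 was the high library in both groups, so the groups overlapped, and the gene was not called (log2 2.18, SE 1.51, adjusted p = 0.294). Each JNJ library was above the DMSO library of its number, and the gene was called with the replicate block (log2 2.53, adjusted p = 0.0358). Without DMSO replicate 1 the log2 change was 6.96 (adjusted p = 0.0233), and without JNJ replicate 1 it was -0.08 (adjusted p = 0.975).

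The E2F, DREAM and B-MYB factors, which switch cell cycle genes on and off, had 8 of 17 members fall and none rise (median -0.58; 1 rose with the block in the 24 h libraries alone). Mybl2, the B-MYB gene that turns on mitotic genes, stood at 50.7, 45.2 and 63.9 CPM with DMSO and 17.3, 15.5 and 11.6 CPM with JNJ and fell (log2 -1.85, SE 0.25, adjusted p = 0.000258). Lin9, a core subunit of the complexes that hold B-MYB, stood at 75.2, 57.8 and 77.6 CPM with DMSO and 30.4, 19.7 and 17.9 CPM with JNJ and fell (log2 -1.63, SE 0.24, adjusted p = 0.000388). E2f7, a repressor of the E2F family, stood at 25.9, 32.6 and 37.2 CPM with DMSO and 10.5, 14.2 and 8.20 CPM with JNJ and fell (log2 -1.54, SE 0.25, adjusted p = 0.000791). None of these groups overlapped. Lin52 (log2 -0.30) and Lin54 (-0.22), other subunits of the complex, were not called. These were named after their values were seen.

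**Figure D1:**
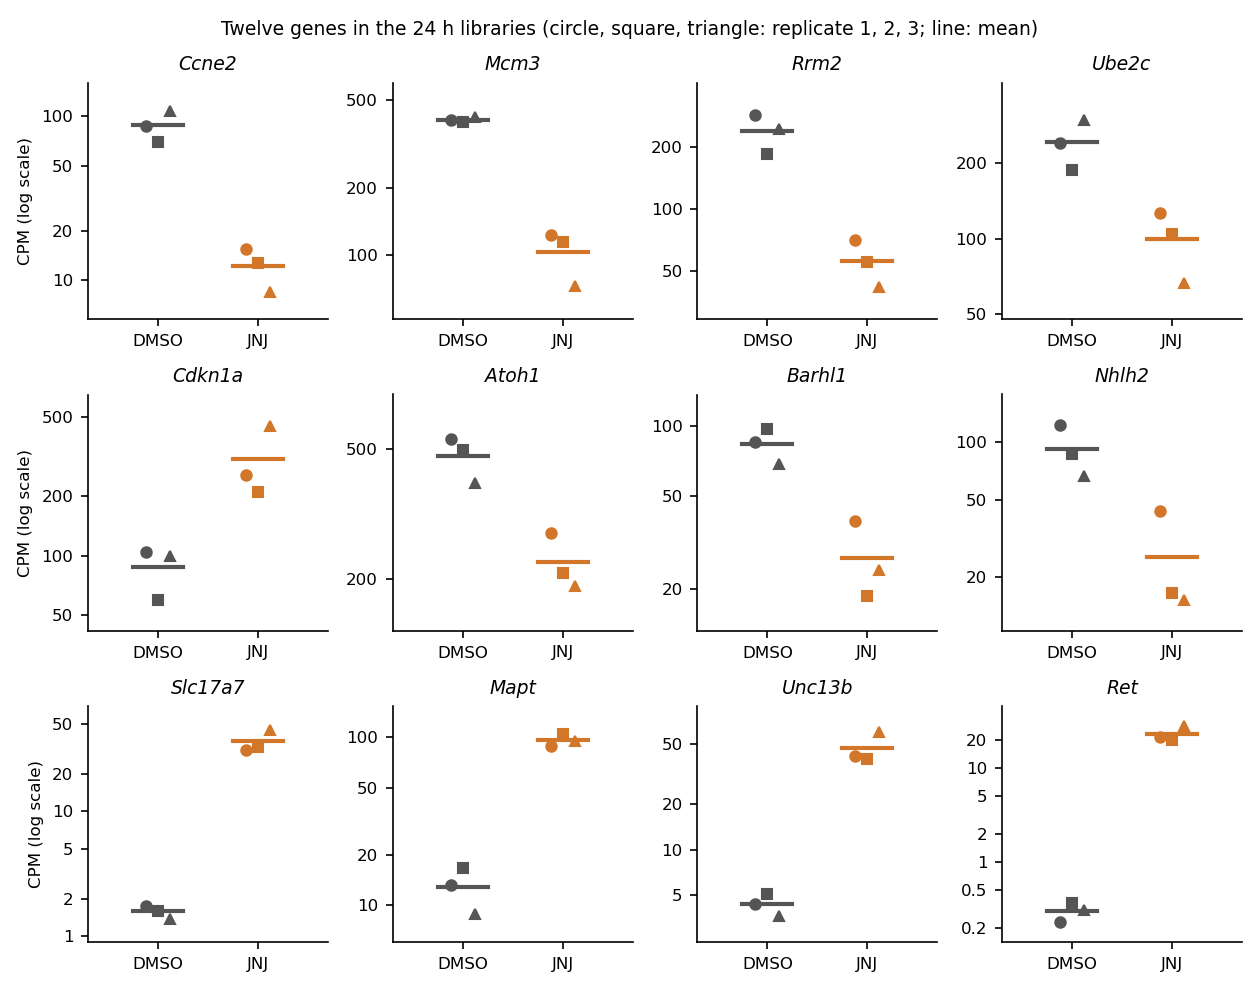
CPM in each of the 6 libraries of 24 h for Ccne2, Mcm3, Rrm2, Ube2c, Cdkn1a, Atoh1, Barhl1, Nhlh2, Slc17a7, Mapt, Unc13b and Ret, on log axes that differ between panels. Circles, squares and triangles are replicates 1, 2 and 3 and lines are group means; in all these panels the JNJ libraries lie on 1 side of the DMSO libraries.

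The machinery of DNA replication fell as a group. In the lists of origin licensing and helicase, 19 of 23 genes fell (median -1.25), and of the replication fork 24 of 28 fell and 1 rose (median -1.11). Of the nucleotide synthesis list 12 of 14 fell (median -1.10), and of the list of chromatin assembly and maintenance methylation 8 of 9 (median -1.20). The summed level of the licensing list was 5148, 5159 and 5240.4 CPM with DMSO and 2579, 2428 and 1949.8 CPM with JNJ. It was thus lower in every JNJ library than in any DMSO library.

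Mcm3, a subunit of the replicative helicase, stood at 407, 397 and 421 CPM with DMSO and 122, 114 and 72.2 CPM with JNJ. The DMSO libraries lay close together and JNJ replicate 3 was the lowest of all, and the gene fell (log2 -1.99, SE 0.20, adjusted p = 5.16e-05). Its helicase partners Mcm2, Mcm4, Mcm5 and Mcm7 had log2 changes of -1.36, -1.87, -1.83 and -1.34, all called. Cdc6, which loads the helicase onto origins, stood at 218, 235 and 142 CPM with DMSO and 67.3, 69.4 and 23.8 CPM with JNJ and fell (log2 -1.89, SE 0.37, adjusted p = 0.00203). Mcm10, which helps the helicase fire, stood at 150.2, 134 and 129 CPM with DMSO and 45.8, 43.1 and 22.7 CPM with JNJ and fell (log2 -1.89, SE 0.24, adjusted p = 0.0002). The 4 licensing genes that were not called were Orc3, Orc4, Orc5 and Cdc7, with log2 changes of -0.13, -0.30, -0.59 and -0.71. With the replicate block Orc5 (adjusted p = 0.0358) and Cdc7 (0.00271) were called lower. The Mcm, Orc and Cdc7 genes beyond Mcm3 and Mcm10 were named after their values were seen.

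At the fork, Dna2, a nuclease and helicase that trims Okazaki fragments, stood at 50.9, 53.2 and 54.1 CPM with DMSO and 12.1, 10.9 and 7.17 CPM with JNJ. Every JNJ library was below every DMSO library by a wide margin (log2 -2.39, SE 0.22, adjusted p = 3.56e-05). Timeless and Clspn, parts of the complex that guards stalled forks, fell too. Timeless stood at 136, 128 and 116 CPM with DMSO and 32.1, 39.2 and 21.7 CPM with JNJ (log2 -2.03, SE 0.23, adjusted p = 9.38e-05), and Clspn, which encodes claspin, at 113, 103 and 132 CPM with DMSO and 34.0, 33.3 and 19.7 CPM with JNJ (log2 -2.00, SE 0.21, adjusted p = 6.37e-05). Pold4, the smallest subunit of polymerase delta, was the 1 member that rose. It stood at 4.00, 3.60 and 3.53 CPM with DMSO and 9.20, 10.8 and 10.3 CPM with JNJ, with no overlap (log2 1.44, SE 0.26, adjusted p = 0.00123).

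Enzymes that make DNA precursors fell. Tk1, the thymidine kinase of S phase, stood at 88.5, 80.4 and 89.5 CPM with DMSO and 18.7, 18.9 and 7.21 CPM with JNJ (log2 -2.52, SE 0.38, adjusted p = 0.00043). Rrm2, the ribonucleotide reductase subunit made in S phase, stood at 288, 186 and 246 CPM with DMSO and 71.1, 55.6 and 41.6 CPM with JNJ (log2 -2.09, SE 0.23, adjusted p = 7.98e-05). Tyms, thymidylate synthase, stood at 78.1, 92.4 and 96.7 CPM with DMSO and 23.1, 25.5 and 14.0 CPM with JNJ (log2 -2.09, SE 0.24, adjusted p = 9.79e-05). In all of these the groups did not overlap, and Tk1, Rrm2 and Tyms were lowest in JNJ replicate 3. Among the genes that package new DNA, Hells, a chromatin remodeller, stood at 291, 266 and 291 CPM with DMSO and 84.5, 82.2 and 56.8 CPM with JNJ (log2 -1.92, SE 0.19, adjusted p = 4.74e-05). Nasp, a histone chaperone, stood at 507, 505 and 424 CPM with DMSO and 172, 152 and 76.3 CPM with JNJ (log2 -1.84, SE 0.26, adjusted p = 0.000308), and Chaf1a, the large subunit of chromatin assembly factor 1, at 168, 178 and 176 CPM with DMSO and 70.3, 92.0 and 57.1 CPM with JNJ (log2 -1.25, SE 0.17, adjusted p = 0.000288). These were again lower in all JNJ libraries.

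Genes of mitosis fell to a smaller median extent. Of 24 mitotic cyclins, kinases and checkpoint genes, 20 fell and 1 rose (median -0.88). Of 38 genes of the spindle, centromere and condensin, 26 fell and none rose (median -0.83). The spindle list depended more on single libraries and on scaling than the replication lists: 15 fell without DMSO replicate 1, 14 without DMSO replicate 3, 15 without JNJ replicate 3 and 13 with scaling by library totals. The count of the mitotic list was 13 without JNJ replicate 3. The summed level of the spindle list was 9156, 8322 and 9025 CPM with DMSO and 6292, 5766 and 3104 CPM with JNJ. JNJ replicate 3 was far below the other JNJ libraries, and the groups still did not overlap.

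Plk4, the kinase that starts centriole duplication, stood at 173, 158 and 161 CPM with DMSO and 71.2, 67.7 and 36.4 CPM with JNJ (log2 -1.49, SE 0.22, adjusted p = 0.000431). Wee1, the kinase that restrains CDK1, stood at 116, 121 and 121 CPM with DMSO and 52.7, 53.8 and 31.9 CPM with JNJ (log2 -1.37, SE 0.22, adjusted p = 0.000602). Ube2c, the ubiquitin carrier of the anaphase-promoting complex, stood at 242, 188 and 299 CPM with DMSO and 127, 104 and 66.5 CPM with JNJ (log2 -1.29, SE 0.25, adjusted p = 0.00187). The groups of these genes did not overlap, and JNJ replicate 3 was the lowest library each time. Pttg1, which encodes securin, the inhibitor of separase, went the other way. It stood at 25.1, 25.3 and 23.1 CPM with DMSO and 41.8, 44.4 and 45.0 CPM with JNJ, higher in all JNJ libraries (log2 0.84, SE 0.16, adjusted p = 0.00212). Of the kinetochore genes, Cenpk stood at 23.9, 28.0 and 34.2 CPM with DMSO and 8.84, 9.35 and 5.16 CPM with JNJ (log2 -1.88, SE 0.25, adjusted p = 0.000228), Spc24 at 66.9, 44.3 and 66.3 CPM with DMSO and 24.2, 21.7 and 11.8 CPM with JNJ (log2 -1.62, SE 0.25, adjusted p = 0.000518), and Cenpn at 67.6, 51.2 and 62.4 CPM with DMSO and 27.6, 26.1 and 14.3 CPM with JNJ (log2 -1.41, SE 0.22, adjusted p = 0.000629). All of these fell, with no overlap.

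Promoters of these genes were read from RefSeq (GRCm38.p6), as windows of 250 bases before and 50 after the start. The counts were made by the authors on mm9, so these coordinates belong to RefSeq's build and not to the count table. The following were chosen, from genes that fell, because they carry the elements that E2F and DREAM complexes are known to bind. Capitals mark matches to the E2F element (TTTNNCGC) or the CHR element (TTTGAA) on either strand. Mcm3 (chr1:20820263-20820562, - strand) has E2F matches at +20 and +39, counted from the start as +1. Clspn (chr4:126556730-126557029, + strand) has one at +22. Ube2c (chr2:164769679-164769978, + strand) has a CHR match at -29 and Cenpn (chr8:116921490-116921789, + strand) at -9.
Mcm3: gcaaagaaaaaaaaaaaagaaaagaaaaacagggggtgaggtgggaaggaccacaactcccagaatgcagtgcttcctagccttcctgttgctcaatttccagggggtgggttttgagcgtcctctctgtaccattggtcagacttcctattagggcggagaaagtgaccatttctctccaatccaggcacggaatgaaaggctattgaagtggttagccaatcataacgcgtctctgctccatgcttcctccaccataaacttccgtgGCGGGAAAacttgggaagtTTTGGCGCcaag
Clspn: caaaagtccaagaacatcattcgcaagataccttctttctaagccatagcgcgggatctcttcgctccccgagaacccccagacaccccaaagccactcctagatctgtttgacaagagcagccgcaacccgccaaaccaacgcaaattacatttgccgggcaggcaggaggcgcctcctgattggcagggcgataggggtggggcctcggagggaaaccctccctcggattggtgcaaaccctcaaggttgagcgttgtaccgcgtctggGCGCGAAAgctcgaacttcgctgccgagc
Ube2c: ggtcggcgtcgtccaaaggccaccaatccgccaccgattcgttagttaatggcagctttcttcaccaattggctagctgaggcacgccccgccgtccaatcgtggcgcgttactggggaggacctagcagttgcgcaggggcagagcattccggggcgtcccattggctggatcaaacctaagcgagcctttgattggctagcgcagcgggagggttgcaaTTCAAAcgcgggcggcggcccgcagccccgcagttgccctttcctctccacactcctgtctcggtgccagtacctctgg
Cenpn: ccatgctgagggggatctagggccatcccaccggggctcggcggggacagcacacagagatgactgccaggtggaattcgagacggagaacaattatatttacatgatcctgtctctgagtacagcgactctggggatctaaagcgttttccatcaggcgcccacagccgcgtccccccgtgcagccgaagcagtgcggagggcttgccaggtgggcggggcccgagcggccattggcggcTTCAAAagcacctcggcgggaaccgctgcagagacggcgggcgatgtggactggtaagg

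Promoters were found for 142 of the 171 cell cycle genes (83.0%), 170 windows in all. The E2F element was in 27.1% of them and the CHR element in 33.5%, against 8.05% and 11.8% of the 14534 windows of all genes tested (78.7% of the tested genes have a window). Over all 32851 RefSeq promoters the shares were 5.17% and 17.9%. Shares are given for single lists only where at least 80% of the tested members had a window. Among 29 windows of the replication fork list, 34.5% had the E2F element and 6.90% the CHR element. Among 14 windows of the nucleotide synthesis list each element was in 7.14%, and among 12 of the list of chromatin assembly and maintenance methylation 33.3% had the E2F element and 25% the CHR element. Among 38 windows of the spindle, centromere and condensin list, 15.8% had the E2F element and 68.4% the CHR element. The E2F element was thus the more frequent of the pair in the fork list and the CHR element in the spindle list. The cell cycle windows held a median of 24 CpG pairs each, against 20 over all genes tested and 7 over all RefSeq promoters, and the E2F element itself contains a CpG. The part of base composition in the shares was not tested. The shares are over list members whether or not they were called, and a match describes letters only.

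**Figure D2:**
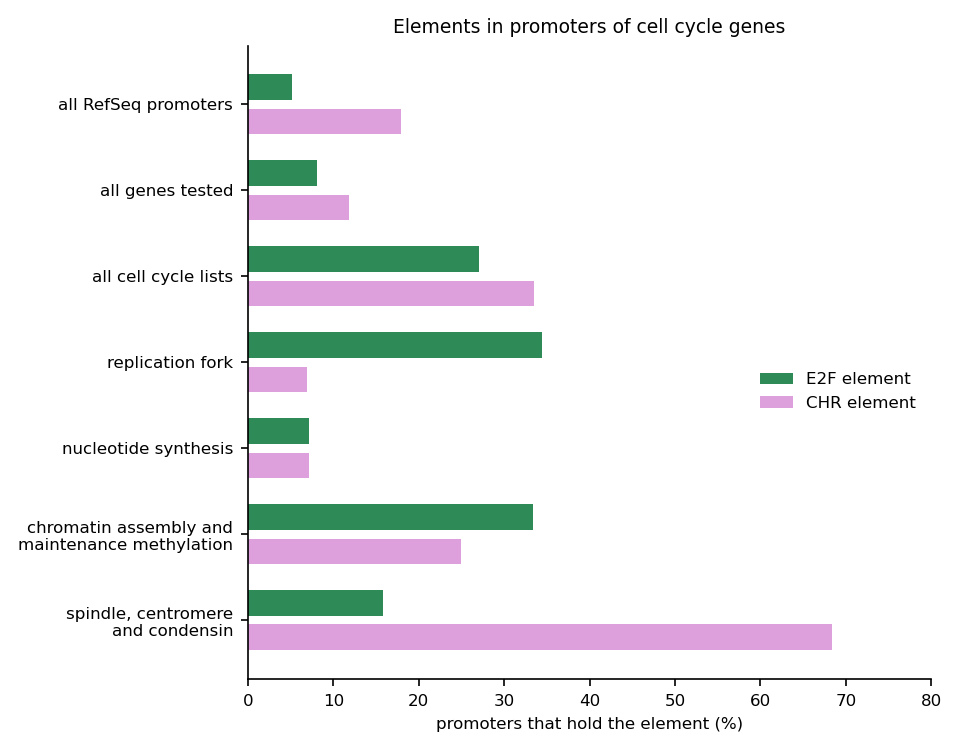
Share of RefSeq promoter windows (percent) that hold the E2F element or the CHR element, for all RefSeq promoters, all genes tested, all cell cycle lists, and the replication fork, nucleotide synthesis, chromatin assembly and spindle lists. The E2F share is 34.5% in the fork list and 15.8% in the spindle list, and the CHR share 6.90% and 68.4%.

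Of 180 tested genes in 7 neuronal lists, 62 rose (34.4%, against 18.1% of all genes), 17 fell (9.44%, against 15.1%) and 101 were not called. The median log2 change was 0.66. Another 21 members did not pass the count filter, so these shares do not cover all members. With the replicate block 84 rose and 27 fell, and with the block in the 24 h libraries alone 97 rose. The lists did not move alike. Of the granule lineage factors 7 fell and 1 rose, while 16 of 35 vesicle genes, 15 of 34 channel genes and 9 of 15 peptide genes rose.

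Of 23 granule lineage factors, 7 fell, 1 rose and 15 were not called (median -0.34). The shares that fell and rose were 30.4% and 4.35%, against 15.1% and 18.1% of all genes. With the block in the 24 h libraries alone 14 fell and 6 rose (9 and 4 with the block over 12 libraries). Atoh1, the proneural factor that keeps granule progenitors dividing, stood at 536, 497 and 392 CPM with DMSO and 276, 209 and 189.9 CPM with JNJ. All JNJ libraries were lower, and it fell (log2 -1.08, SE 0.20, adjusted p = 0.00161). Barhl1, a homeobox gene downstream of Atoh1, stood at 85.5, 96.7 and 68.9 CPM with DMSO and 39.1, 18.7 and 24.1 CPM with JNJ and fell (log2 -1.62, SE 0.31, adjusted p = 0.00183). Nhlh2, a helix-loop-helix gene of young neurons, stood at 122, 86.8 and 66.1 CPM with DMSO and 43.9, 16.5 and 15.1 CPM with JNJ, with JNJ replicate 1 well above the other JNJ libraries. It fell (log2 -1.86, SE 0.37, adjusted p = 0.00229; log2 -2.54 without JNJ replicate 1). Pax6, a homeobox gene of granule progenitors and neurons, stood at 11.6, 14.5 and 14.4 CPM with DMSO and 7.72, 4.83 and 2.52 CPM with JNJ and fell (log2 -1.42, SE 0.36, adjusted p = 0.00867). Neurod1, the factor of granule cell differentiation, stood at 67.0, 35.6 and 60.7 CPM with DMSO and 45.4, 24.8 and 35.0 CPM with JNJ. Its groups overlapped and it was not called (log2 -0.63, adjusted p = 0.175), but it was lower in each JNJ library than in the DMSO library of the same number and was called with the replicate block (log2 -0.62, adjusted p = 0.00876). Zic1, a zinc finger factor of the lineage, stood at 549, 519 and 598 CPM with DMSO and 389, 366 and 486 CPM with JNJ. It was not called (log2 -0.43, adjusted p = 0.198), but was called lower in the fits to the 24 h libraries alone (0.0372, and 0.00294 with the block). Eomes, a factor of unipolar brush cells, another glutamatergic cell of the cerebellum, was the member that rose (log2 2.88, SE 0.93, adjusted p = 0.0306), from 0.259, 0.129 and 0.310 CPM to 2.10, 0.608 and 2.48 CPM. The Eomes call was lost without DMSO replicates 1, 2 or 3 (adjusted p = 0.0782, 0.0965 and 0.0646) or JNJ replicates 1 or 3 (0.0726 and 0.0957), and Eomes and Zic1 were named after their values were seen.

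Genes that mark granule neurons past division were mixed. Of 18 tested, 6 rose (33.3%, against 18.1% of all genes), 1 fell (5.56%, against 15.1%) and 11 were not called (median 0.52). The count that rose was 3 without DMSO replicate 1 or without DMSO replicate 2, and with the block in the 24 h libraries alone 10 rose and 3 fell. Slc17a7, the vesicular glutamate transporter that loads granule cell synapses, stood at 1.76, 1.60 and 1.38 CPM with DMSO and 31.0, 33.0 and 45.2 CPM with JNJ. It rose 22.97-fold with tight replicates (log2 4.52, SE 0.30, adjusted p = 4.6e-06). Grm4, a metabotropic glutamate receptor of granule cell terminals, stood at 1.93, 1.60 and 2.68 CPM with DMSO and 5.62, 4.16 and 7.61 CPM with JNJ (log2 1.48, SE 0.38, adjusted p = 0.00951). Vsnl1, a calcium sensor, stood at 1.04, 0.595 and 1.21 CPM with DMSO and 4.10, 3.36 and 4.53 CPM with JNJ (log2 2.07, SE 0.61, adjusted p = 0.0202). The Vsnl1 call was lost without DMSO replicate 1 (adjusted p = 0.0554), DMSO replicate 2 (0.0765) or JNJ replicate 3 (0.0588). Gabrd, the delta subunit of the granule cell's GABA-A receptor, rose from 0.0864, 0.0776 and 0.0846 CPM to 1.63, 1.44 and 1.89 CPM (log2 4.26, SE 0.50, adjusted p = 0.000115) and was named after its values were seen. Cbln3, a secreted synaptic organizer made by granule neurons, stood at 2.30, 2.36 and 1.92 CPM with DMSO and 0.907, 0.704 and 0.631 CPM with JNJ and fell (log2 -1.54, SE 0.42, adjusted p = 0.0137). Without JNJ replicate 2 the call was lost (adjusted p = 0.0508), as it was without JNJ replicate 3 (0.0559). Rbfox3, the NeuN gene, was not called (log2 -0.38, adjusted p = 0.204) except lower with the block in the 24 h libraries alone (0.00742), and was named after its values were seen.

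Of 21 genes of neuronal cytoskeleton and adhesion, 8 rose, 3 fell and 10 were not called (median 0.70; 5 rose without DMSO replicate 2, DMSO replicate 3 or JNJ replicate 3; 6 fell with the block in the 24 h libraries alone). The share that rose was 38.1%, against 18.1% of all genes, and the share that fell, 14.3%, was near the 15.1% of all genes. Mapt, which encodes tau, stood at 13.2, 16.6 and 8.80 CPM with DMSO and 88.4, 105 and 95.5 CPM with JNJ. It rose 7.46-fold, and the lowest JNJ library was far over the highest DMSO library (log2 2.90, SE 0.35, adjusted p = 0.000127). Nefl, the neurofilament light chain gene, stood at 4.38, 2.36 and 0.705 CPM with DMSO and 17.4, 11.9 and 8.16 CPM with JNJ (log2 2.34, SE 0.58, adjusted p = 0.00851; log2 3.02 without DMSO replicate 1). Stmn2, a microtubule regulator of growing axons, stood at 2.79, 0.181 and 1.04 CPM with DMSO and 21.5, 4.77 and 26.6 CPM with JNJ (log2 3.72, SE 1.14, adjusted p = 0.0241). Replicate 2 was the lowest library in both groups. The Stmn2 call was lost without DMSO replicate 2 (adjusted p = 0.0640), DMSO replicate 3 (0.0770), JNJ replicate 1 (0.0541) or JNJ replicate 3 (0.0768), and its log2 change was 4.84 without DMSO replicate 1. Dcx, the doublecortin gene of migrating young neurons, went the other way at 189.9, 212 and 145 CPM with DMSO and 64.9, 76.3 and 70.4 CPM with JNJ, with no overlap (log2 -1.37, SE 0.33, adjusted p = 0.00646).

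Of 35 genes of the synaptic vesicle and its release, 16 rose, 3 fell and 16 were not called (median 0.81; 10 rose without DMSO replicate 2). Rises were 45.7% of the list and falls 8.57%, against 18.1% and 15.1% of all genes. None of the 3 falls held with library totals, upper-quartile scaling or without JNJ replicate 2, and 1 was left without any other single library of 24 h. The summed level of the list was 1253, 1154 and 1214 CPM with DMSO and 1823, 1602 and 2159 CPM with JNJ. Unc13b, a priming factor of vesicles, stood at 4.40, 5.15 and 3.67 CPM with DMSO and 41.5, 39.6 and 59.2 CPM with JNJ. It rose 10.6-fold with no overlap (log2 3.41, SE 0.27, adjusted p = 1.55e-05). Syt1, the calcium sensor of fast release, stood at 19.4, 12.7 and 20.1 CPM with DMSO and 68.2, 57.3 and 88.4 CPM with JNJ (log2 2.04, SE 0.25, adjusted p = 0.000143). Syt5, a relative, stood at 0.173, 0.854 and 0.310 CPM with DMSO and 1.89, 3.52 and 2.60 CPM with JNJ (log2 2.56, SE 0.66, adjusted p = 0.0102; log2 3.42 without DMSO replicate 2). Both were higher in every JNJ library. Sv2b, a vesicle glycoprotein gene, stood at 3.25, 7.27 and 11.8 CPM with DMSO and 1.45, 2.56 and 3.70 CPM with JNJ. Its groups overlapped, and its call (log2 -1.54, SE 0.53, adjusted p = 0.0407) was lost with library totals (adjusted p = 0.0629), upper-quartile scaling (0.0560) and limma voom (0.0606). It was also lost without DMSO replicate 2 (0.0707), DMSO replicate 3 (0.181), JNJ replicate 1 (0.137) or JNJ replicate 2 (0.102).

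On the receiving side, 7 of 34 tested transmitter receptor and scaffold genes rose, 2 fell and 25 were not called (median 0.23). This share of rises, 20.6%, is near the 18.1% of all genes. The count was 4 without DMSO replicate 3 and 12 with the block in the 24 h libraries alone, where 7 fell. Grin1, the obligate subunit of NMDA receptors, stood at 2.45, 1.71 and 2.54 CPM with DMSO and 8.45, 6.92 and 13.7 CPM with JNJ (log2 2.12, SE 0.45, adjusted p = 0.0036). Gabrb2, a GABA-A receptor subunit gene, stood at 5.73, 4.63 and 4.63 CPM with DMSO and 19.1, 14.5 and 24.2 CPM with JNJ (log2 1.95, SE 0.28, adjusted p = 0.000388). Both rose with no overlap. Shank1, a scaffold of the postsynaptic density, stood at 3.57, 3.24 and 0.959 CPM with DMSO and 14.1, 7.20 and 7.06 CPM with JNJ (log2 1.87, SE 0.66, adjusted p = 0.0455). The Shank1 call was lost when any 1 of the 24 h libraries was left out, with adjusted p from 0.0603 to 0.151. Grik5, a kainate receptor subunit gene, stood at 91.5, 84.8 and 61.2 CPM with DMSO and 51.8, 44.4 and 28.8 CPM with JNJ and fell (log2 -0.92, SE 0.23, adjusted p = 0.00835).

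Of 34 tested voltage-gated channel genes, 15 rose, 1 fell and 18 were not called (median 1.11; 24 rose and 5 fell with the block in the 24 h libraries alone). These shares are 44.1% and 2.94%, against the 18.1% that rose and 15.1% that fell of all genes. Kcna1, a potassium channel of axons, was at or under the floor in the DMSO libraries, at 0.0864, 0 and 0.0564 CPM, and stood at 4.54, 2.53 and 4.53 CPM with JNJ. Its 5 DMSO counts and 369 JNJ counts give a ratio of 84.4 (exact 95% counting interval 35.8 to 261), and the gene rose (adjusted p = 0.000202). Without DMSO replicates 1 or 2 the fitted log2 change of 6.27 was 6.96 or 5.67. Cacna1g, a low-voltage calcium channel gene, stood at 1.18, 3.83 and 0.677 CPM with DMSO and 34.3, 40.2 and 21.5 CPM with JNJ (log2 4.07, SE 0.68, adjusted p = 0.000815; log2 5.08 without DMSO replicate 2). Kcnh3, a potassium channel gene of the forebrain, stood at 0.95, 0.492 and 0.480 CPM with DMSO and 9.98, 10.9 and 9.74 CPM with JNJ (log2 3.99, SE 0.49, adjusted p = 0.000143). In these genes every JNJ library lay well over every DMSO library. Kcna2, the usual partner of Kcna1 in axons, moved the other way at 114, 118 and 169.7 CPM with DMSO and 77.0, 42.4 and 49.4 CPM with JNJ, and fell (log2 -1.25, SE 0.28, adjusted p = 0.0045).

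The neuropeptide and secretory granule list had the highest share of rises among the neuronal lists. Of 15 tested members 9 rose (60%, against 18.1% of all genes) and none fell (median 1.96; 1 fell with the block in the 24 h libraries alone). Another 10 members did not pass the count filter. Vgf, a secreted peptide precursor, stood at 3.51, 3.75 and 4.12 CPM with DMSO and 54.8, 49.6 and 104 CPM with JNJ. It rose 18.2-fold (log2 4.19, SE 0.43, adjusted p = 6.26e-05). Resp18, an endocrine secretory protein gene, stood at 0.835, 0.362 and 0.141 CPM with DMSO and 17.5, 12.2 and 9.93 CPM with JNJ (log2 4.88, SE 0.93, adjusted p = 0.00183; log2 5.68 without DMSO replicate 1). Scg2, which encodes secretogranin II, stood at 0.403, 0.699 and 0.451 CPM with DMSO and 3.42, 4.67 and 2.96 CPM with JNJ (log2 2.82, SE 0.53, adjusted p = 0.00159). The groups of all these genes were apart. Chga (log2 2.81) and Chgb (1.96), the chromogranins, and Pcsk2 (2.46), a prohormone convertase, rose too and were named after their values were seen.

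**Figure D3:**
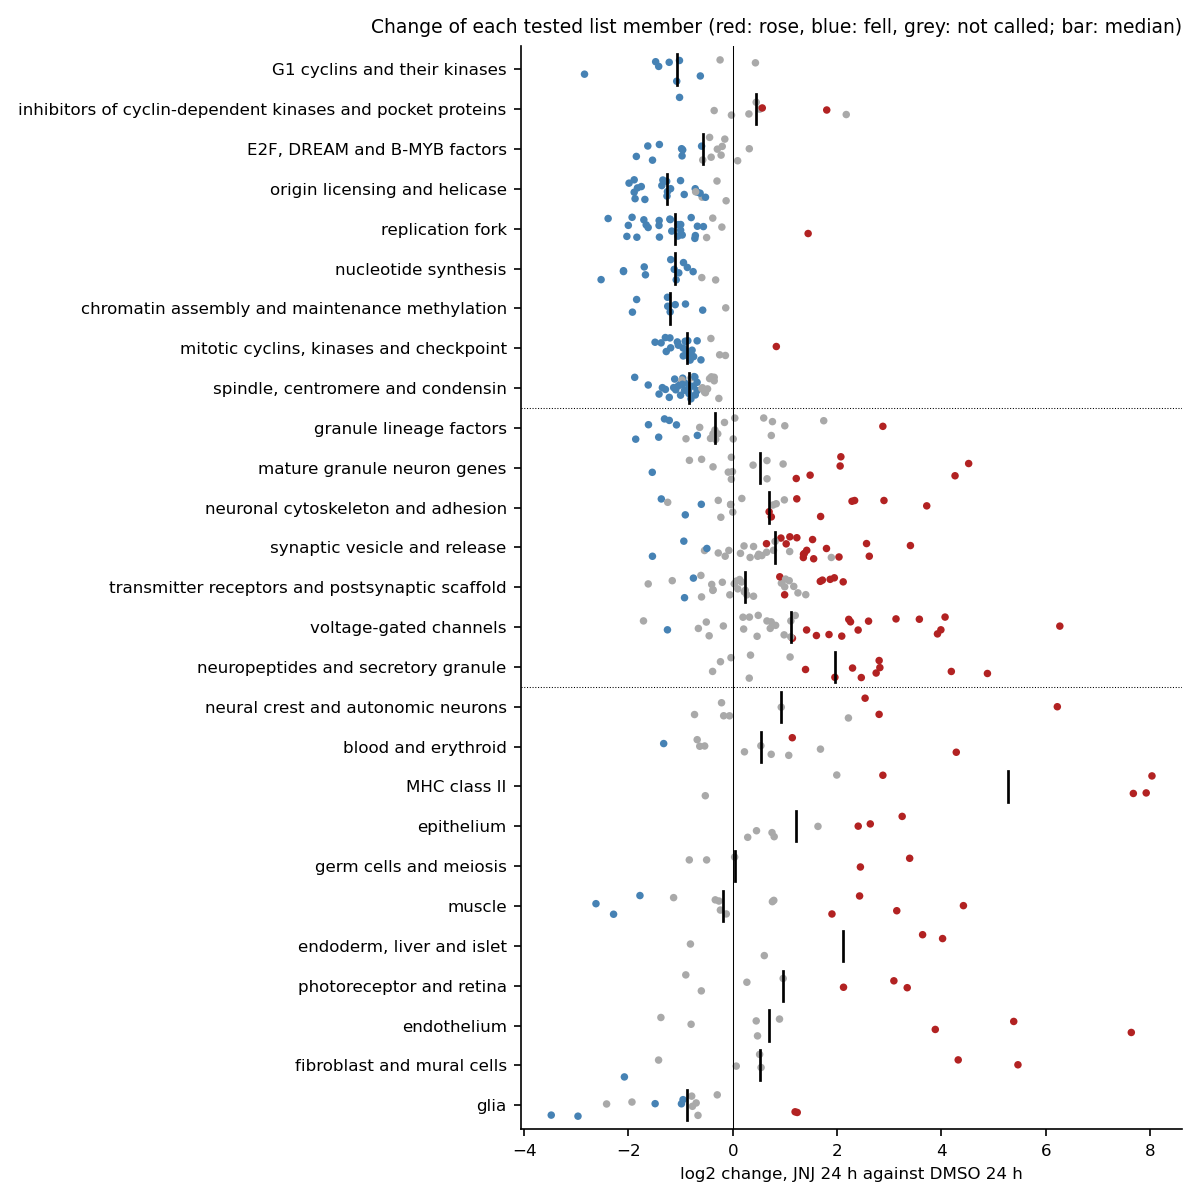
Log2 change with JNJ at 24 h (x axis) of every tested member of the 9 cell cycle, 7 neuronal and 11 other lineage lists, 1 point per gene, with vertical positions spread at random within a row. Red genes rose, blue genes fell and grey genes were not called; black bars are list medians, which lie near -1 in the replication lists and above 0 in most neuronal lists.

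Genes that mark lineages other than the granule neuron were the third group. The lists include glia, endothelium, and fibroblast and mural cells, which are not foreign to the cerebellum. Of the 10 genes that fell, 5 were glial. Of 211 members of 11 lists, 118 did not pass the count filter. Of the 93 tested, 30 rose (32.3%, against 18.1% of all genes), 10 fell and 53 were not called (median 0.51). A gene silent in the solvent could pass the filter only through a group where it was high, so the tested members are not all members. The shares of rises in these lists are therefore descriptions and support nothing. The count that rose was 17 when a mean level of 1 CPM was required, and 45 with no filter.

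The MHC class II genes, which present antigen on immune cells, had 4 of 6 tested members rise (against 18.1% of all genes), and 2 where a mean of 1 CPM was required. Another 4 members did not pass the count filter. Members silent with DMSO could pass it only through another group, so this count is a description and supports nothing. H2-Ab1, a class II beta chain gene, stood at 0.0576, 0.0518 and 0 CPM with DMSO and 9.46, 6.82 and 15.5 CPM with JNJ. Its 4 DMSO counts and 971 JNJ counts give a ratio of 278 (exact 95% counting interval 108.0 to 1021; adjusted p = 3.13e-05). H2-Eb1 had no count in the DMSO libraries and 80 in the JNJ libraries, at least 30.5-fold higher against a floor of 3 counts over the group. H2-DMb1 had none and 68, at least 25.9-fold higher. edgeR called both (adjusted p = 0.00317 and 0.00238), and DESeq2 did not call H2-Eb1 (0.161). H2-DMa, whose product helps to load class II molecules, stood at 1.53, 1.92 and 0.705 CPM with DMSO and 8.66, 12.4 and 9.50 CPM with JNJ (log2 2.88, SE 0.54, adjusted p = 0.00175). Cd74, the invariant chain that travels with class II molecules, was not called (log2 1.99, adjusted p = 0.119), and neither was Ciita, the master activator of the class (log2 -0.53, adjusted p = 0.604; 0.17 without DMSO replicate 2). Of the 5 microglia and blood markers, Itgam had no count with DMSO and 19 with JNJ, at least 7.24-fold higher, and Laptm5 had 1 and 25, a ratio of 28.6 (exact 95% counting interval 4.68 to 1173). Ptprc had 2 and 4 counts, Aif1 had 0 and 1, and Csf1r had 9 and 3. The part of such cells in the class II result was not tested. Paralogs of the H2 family can share reads, and how such reads were counted is not given in the sources used here. H2-Eb1, H2-DMb1, Cd74 and Ciita were named after their values were seen.

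Of 9 tested genes of neural crest and autonomic neurons, 3 rose (33.3%, against 18.1% of all genes) and none fell (5 rose with the replicate block). Ret, the receptor of glial cell line-derived factors, stood at 0.230, 0.362 and 0.310 CPM with DMSO and 21.2, 19.7 and 27.6 CPM with JNJ. It rose 74.6-fold with close replicates (log2 6.22, SE 0.51, adjusted p = 1.7e-05). Mitf, the master factor of melanocytes, stood at 7.14, 5.93 and 7.70 CPM with DMSO and 34.7, 38.4 and 47.5 CPM with JNJ (log2 2.54, SE 0.23, adjusted p = 3.18e-05). Prph, which encodes the neurofilament protein peripherin, stood at 10.7, 29.4 and 12.9 CPM with DMSO and 117, 172 and 81.0 CPM with JNJ (log2 2.81, SE 0.48, adjusted p = 0.000941). All had no overlap. Phox2a (log2 2.22, adjusted p = 0.172) and Tfap2a (-0.17, 0.553), factors of the same lineages, were not called, but Phox2a was with the replicate block (log2 2.43, adjusted p = 0.0257). They were named after their values were seen.

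In the blood list 2 of 11 tested genes rose and 1 fell, a share of rises (18.2%) at that of all genes (18.1%). Gata2, a factor of blood stem cells and of some neurons, stood at 0.345, 0.854 and 0.931 CPM with DMSO and 13.9, 12.0 and 15.9 CPM with JNJ and rose 19.5-fold (log2 4.28, SE 0.43, adjusted p = 5.82e-05). Kit, a growth factor receptor, stood at 10.2, 10.7 and 12.8 CPM with DMSO and 25.1, 21.2 and 28.0 CPM with JNJ (log2 1.14, SE 0.27, adjusted p = 0.00639). Lmo2, a partner of GATA factors, stood at 124, 109 and 78.8 CPM with DMSO and 69.0, 26.2 and 29.4 CPM with JNJ and fell (log2 -1.32, SE 0.34, adjusted p = 0.0106), a call lost without JNJ replicate 3 (adjusted p = 0.0505). Without DMSO replicate 2, 4 members rose.

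Endothelial growth factor receptors rose. In that list 3 of 8 tested genes rose (37.5%, against 18.1% of all genes) and none fell. Flt4, the receptor of lymphatic vessels, had 3 counts in the DMSO libraries and stood at 7.62, 1.47 and 9.74 CPM with JNJ. With 587 JNJ counts its ratio was 224 (exact 95% counting interval 76.2 to 1088; adjusted p = 0.000308). JNJ replicate 2 was the lowest of the JNJ libraries, and the fitted log2 change of 7.64 was 8.50 without DMSO replicate 1. Kdr, the main receptor of vessel growth, stood at 0.317, 0.104 and 0.0846 CPM with DMSO and 1.97, 2.24 and 3.35 CPM with JNJ (log2 3.88, SE 0.58, adjusted p = 0.000442; log2 4.68 without DMSO replicate 1). The markers Pecam1 (log2 0.45, adjusted p = 0.556) and Cdh5 (-1.38, 0.473) were not called. Cdh5 was high in DMSO replicate 2 alone, without which its log2 change was 1.02, and Cldn5 was at 0 in all 24 h libraries.

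Epithelial genes had 3 of 8 tested members rise (37.5%, against 18.1% of all genes) and none fall, while 18 of the 26 members did not pass the filter. Where a mean of 1 CPM was required 1 rose, and with no filter 8. Grhl3, a factor of epithelial barriers, stood at 0.777, 1.29 and 0.705 CPM with DMSO and 3.53, 6.47 and 7.37 CPM with JNJ (log2 2.64, SE 0.73, adjusted p = 0.0142), a call lost without DMSO replicate 1 (adjusted p = 0.0529) or DMSO replicate 3 (0.0555). Cdh1, which encodes E-cadherin, stood at 0.0576, 0.0518 and 0.197 CPM with DMSO and 0.311, 0.320 and 2.40 CPM with JNJ (log2 3.25, SE 0.98, adjusted p = 0.0226). JNJ replicate 3 was far above the other libraries, and without it the log2 change was 1.60 (adjusted p = 0.213), and its call was also lost without DMSO replicate 1 (0.0807) or DMSO replicate 2 (0.0789). Epcam, an epithelial adhesion gene that did not pass the filter, had 2 counts with DMSO and 95 with JNJ, a ratio of 54.3 (exact 95% counting interval 14.6 to 455). Without JNJ replicate 2, or with the block in the 24 h libraries alone, 5 members of the list rose. Cdh1 and Epcam were named after their values were seen.

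Of 14 tested muscle genes 4 rose (28.6%, against 18.1% of all genes) and 3 fell (21.4%, against 15.1%; median -0.18). Where a mean of 1 CPM was required, 1 rose and 1 fell. Ryr1, the calcium release channel of skeletal muscle, stood at 0.605, 0.673 and 0.197 CPM with DMSO and 15.3, 8.64 and 7.88 CPM with JNJ (log2 4.42, SE 0.60, adjusted p = 0.000242). Tnni3, the troponin I of heart, stood at 0.259, 0.233 and 0.113 CPM with DMSO and 2.67, 1.22 and 1.54 CPM with JNJ (log2 3.14, SE 0.73, adjusted p = 0.00589). Myl4, an atrial myosin light chain, stood at 1.87, 1.501 and 2.65 CPM with DMSO and 0.363, 0.288 and 0.315 CPM with JNJ and fell (log2 -2.62, SE 0.48, adjusted p = 0.00143). The groups did not overlap in these genes. Of 7 connective tissue genes tested, 2 rose (28.6%) and 1 fell (14.3%), against the same shares of all genes. Where a mean of 1 CPM was required, 1 rose. Col1a1, a collagen I chain gene, stood at 0.979, 1.40 and 0.226 CPM with DMSO and 23.8, 20.5 and 8.04 CPM with JNJ (log2 4.32, SE 0.75, adjusted p = 0.00103), while Col3a1, a collagen III chain gene, stood at 3.40, 3.21 and 3.08 CPM with DMSO and 1.19, 0.256 and 0.828 CPM with JNJ and fell (log2 -2.08, SE 0.53, adjusted p = 0.00951). Col1a2, the partner chain of Col1a1, had 2 counts with DMSO and 11 with JNJ.

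Of 26 germ cell genes 21 did not pass the count filter. Of the 5 tested 2 rose (40%, against 18.1% of all genes) and none fell (1 fell with the block). Ddx4, the germ line helicase vasa, stood at 0.748, 1.01 and 0.254 CPM with DMSO and 5.11, 3.59 and 2.33 CPM with JNJ (log2 2.45, SE 0.57, adjusted p = 0.00589), and Tex15, a gene of meiosis, at 2.30, 0.388 and 1.04 CPM with DMSO and 16.5, 3.94 and 18.8 CPM with JNJ (log2 3.39, SE 0.88, adjusted p = 0.0106; log2 4.18 without DMSO replicate 1). Of 14 photoreceptor genes 7 did not pass the filter. Of the 7 tested 3 rose (42.9%) and none fell (1 fell with the block), and 1 rose where a mean of 1 CPM was required. Among them Guca1a, an activator of guanylate cyclase, rose from 0.259, 0.233 and 0.310 CPM with DMSO to 2.31, 2.59 and 3.35 CPM with JNJ (log2 3.34, SE 0.48, adjusted p = 0.000354). Of 20 genes of endoderm, liver and islet 16 did not pass the filter. Of the 4 tested 2 rose (50%), both at low levels, and none fell (1 fell with the block in the 24 h libraries alone). Where a mean of 1 CPM was required, 0 rose. Foxa3, a liver factor, had 4 counts with DMSO and 63 with JNJ, a ratio of 18.0 (exact 95% counting interval 6.69 to 68.1). Hnf4a, another liver factor, stood at 0.144, 0 and 0.0846 CPM with DMSO and 1.27, 0.544 and 1.10 CPM with JNJ, and its fitted log2 change of 3.64 was 4.44 without DMSO replicate 1 and 3.03 without DMSO replicate 2. That of Foxa3, 4.02, was 3.43 without DMSO replicate 2. These endoderm genes were named after their values were seen.

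Glial genes went the other way. Of 14 tested, 5 fell (35.7%, against 15.1% of all genes) and 2 rose (14.3%, against 18.1%; median -0.87). With the block in the 24 h libraries alone 11 fell. S100b, a calcium binding protein of astrocytes, stood at 17.8, 5.05 and 30.7 CPM with DMSO and 2.28, 1.02 and 1.46 CPM with JNJ. Its DMSO libraries were themselves spread, and it fell (log2 -3.48, SE 0.77, adjusted p = 0.00427; log2 -2.84 without DMSO replicate 3). Apod, an apolipoprotein of glia, stood at 8.81, 5.36 and 19.3 CPM with DMSO and 0.985, 0.832 and 2.52 CPM with JNJ (log2 -2.97, SE 0.78, adjusted p = 0.0108; log2 -2.32 without DMSO replicate 3 and -3.61 without JNJ replicate 3). Slc1a2, the main glutamate transporter of astrocytes, was abundant in this line, at 400.2, 381 and 471 CPM with DMSO and 169, 113 and 165 CPM with JNJ, and fell (log2 -1.49, SE 0.22, adjusted p = 0.000423). Cspg4, the NG2 gene of oligodendrocyte progenitors, stood at 32.3, 48.0 and 31.9 CPM with DMSO and 59.0, 103 and 102 CPM with JNJ and rose (log2 1.24, SE 0.41, adjusted p = 0.0357). The Cspg4 call was lost without DMSO replicate 1 (adjusted p = 0.107), DMSO replicate 3 (0.110), JNJ replicate 2 (0.0987) or JNJ replicate 3 (0.105).

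Direction went with the level before treatment, here read from the DMSO 2 h libraries, which share no library with the 24 h groups. Tested genes were put into 10 groups of equal size by that level. In the lowest group 43.7% rose and 1.31% fell, and in the highest group 2.90% rose and 31.0% fell. The shares moved step by step over the groups between. The lowest group is where the filter admits genes for being high in a drug group. Of 329 tested genes under 0.1 CPM in DMSO 2 h, 265 rose and none fell, and 62 reached 1 CPM or more in every JNJ 24 h library while none did in every DMSO 24 h library. Genes at that level passed the filter through another group and have little room to fall. These counts are thus a description and support nothing. The lists above differ in level, and the part of level in their counts was not tested.

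**Figure D4:**
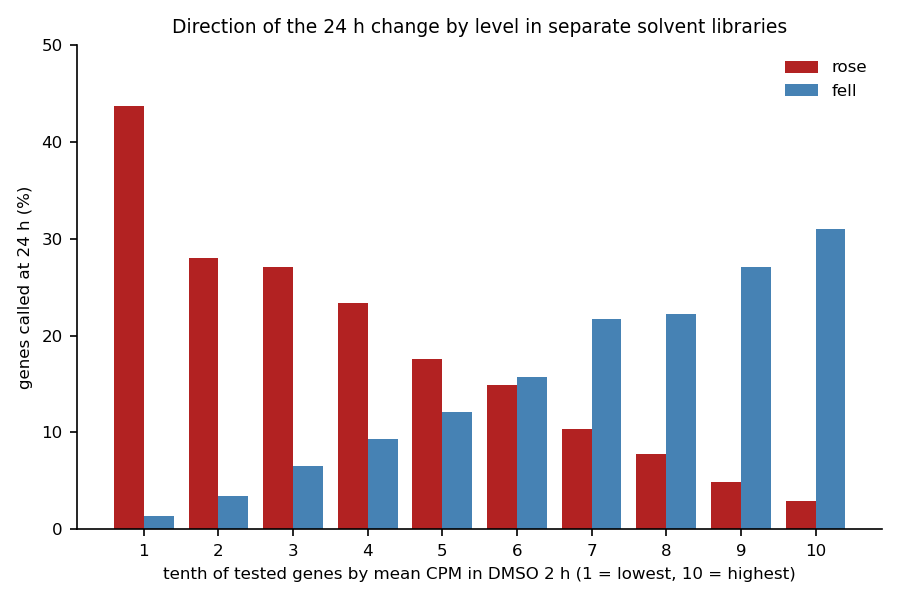
Share of tested genes (percent) that rose (red) or fell (blue) with JNJ at 24 h, in 10 equal groups of genes by mean level in the DMSO 2 h libraries. Rises go from 43.7% in the lowest group to 2.90% in the highest, and falls from 1.31% to 31.0%.

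The genes with the largest rises, where the mean level was 5 CPM or more and the groups did not overlap, were mostly near the floor in the solvent. Itpr3, a calcium release channel of the endoplasmic reticulum, stood at 0.144, 0.181 and 0.141 CPM with DMSO and 29.7, 34.1 and 63.7 CPM with JNJ (log2 8.06, SE 0.52, adjusted p = 4.6e-06). Ppm1j, a phosphatase gene, stood at 0.288, 0.129 and 0.169 CPM with DMSO and 16.9, 14.5 and 19.5 CPM with JNJ (log2 6.42, SE 0.78, adjusted p = 0.000141). Klc3, a kinesin light chain gene, stood at 0.173, 0.129 and 0.197 CPM with DMSO and 13.2, 11.3 and 13.9 CPM with JNJ (log2 6.24, SE 0.44, adjusted p = 7.04e-06). The JNJ libraries of each were close together compared with the distance between groups. Scube1, a secreted protein gene, rose 49.1-fold, Jakmip1, a microtubule-binding protein gene of neurons, 38.1-fold (log2 5.91 without DMSO replicate 1), Shisa7, a partner of GABA-A receptors, 36.4-fold (5.91 without DMSO replicate 1), and Lrp2, the endocytic receptor megalin, 32.8-fold. Plk5, a member of the polo-like kinase family that is expressed in the brain, rose 31.8-fold, from 0.317, 0.285 and 0.536 CPM to 11.9, 10.8 and 13.8 CPM. Extl1, a gene of heparan sulfate synthesis, rose 30.5-fold.

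The largest falls by the same rule were in genes of moderate level. Rcbtb2 stood at 86.4, 105 and 99.7 CPM with DMSO and 7.65, 9.06 and 4.85 CPM with JNJ (log2 -3.75, SE 0.32, adjusted p = 2.12e-05). Lrrc4, a synaptic adhesion gene, stood at 15.9, 14.1 and 12.7 CPM with DMSO and 1.97, 2.11 and 1.22 CPM with JNJ (log2 -3.001, SE 0.32, adjusted p = 7.47e-05). Olig3, a helix-loop-helix factor of the embryonic hindbrain, stood at 46.5, 23.9 and 42.6 CPM with DMSO and 7.88, 3.84 and 5.95 CPM with JNJ (log2 -2.67, SE 0.39, adjusted p = 0.000403). The rule itself required groups without overlap. Each of these genes was at a fraction of its DMSO level in all JNJ libraries. Aven, an inhibitor of apoptosis, fell by 2.63 on the log2 scale, Rdh5, a retinol dehydrogenase gene, by 2.63, and Nwd1 by 2.47. Nupr1, a stress-induced chromatin protein gene, stood at 31.0, 8.90 and 8.01 CPM with DMSO and 2.64, 3.43 and 1.18 CPM with JNJ (log2 -2.71, SE 0.63, adjusted p = 0.00552; log2 -1.81 without DMSO replicate 1). Hamp2, a hepcidin gene with a close paralog that can share its reads, stood at 69.6, 19.4 and 40.1 CPM with DMSO and 11.0, 1.83 and 1.93 CPM with JNJ (log2 -3.11, SE 0.77, adjusted p = 0.00792; log2 -4.52 without JNJ replicate 1).

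Among the hedgehog pathway genes, 3 of 10 tested fell (against 15.1% of all genes) and 1 rose (against 18.1%; median -0.35; 6 fell with the block in the 24 h libraries alone). Smo, the membrane protein that passes the signal on, stood at 232, 254 and 288 CPM with DMSO and 123, 92.0 and 90.7 CPM with JNJ (log2 -1.34, SE 0.18, adjusted p = 0.000235). Hhip, the decoy receptor that the pathway induces, stood at 65.3, 70.9 and 40.6 CPM with DMSO and 29.7, 24.1 and 20.9 CPM with JNJ (log2 -1.24, SE 0.29, adjusted p = 0.00591). Gli1, a transcription factor whose own gene the pathway switches on, stood at 194, 173 and 132 CPM with DMSO and 119.6, 94.8 and 73.8 CPM with JNJ. Its groups did not overlap, and its call (log2 -0.79, SE 0.24, adjusted p = 0.0236) was lost with scaling by library totals (adjusted p = 0.0647) and without DMSO replicate 1 (0.0860), DMSO replicate 2 (0.0510), JNJ replicate 2 (0.0578) or JNJ replicate 3 (0.1001). Cdon, a co-receptor, stood at 8.43, 5.80 and 12.7 CPM with DMSO and 16.6, 26.3 and 27.2 CPM with JNJ and rose (log2 1.38, SE 0.38, adjusted p = 0.0136), a call lost without DMSO replicate 2 (0.0591) or JNJ replicate 3 (0.0512). Ptch1, the receptor and also a target, was not called (log2 0.03, adjusted p = 0.942), with a sign that turned without DMSO replicate 1 or JNJ replicate 3, and was named after its values were seen.

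Of the 11 genes that encode class I, II and IV deacetylases, the family of the drug's targets, 1 rose and 1 fell (9.09% each, below the shares of all genes; 3 each way with the block in the 24 h libraries alone). Hdac5, a class II enzyme of neurons and muscle, stood at 94.9, 90.8 and 85.0 CPM with DMSO and 182, 179 and 186 CPM with JNJ (log2 1.02, SE 0.16, adjusted p = 0.000556). Hdac9, another class II enzyme, stood at 85.7, 67.2 and 96.5 CPM with DMSO and 51.3, 30.4 and 43.8 CPM with JNJ and fell (log2 -0.99, SE 0.27, adjusted p = 0.0125), a call lost without JNJ replicate 2 (0.0551). Hdac1 stood at 89.8, 88.6 and 103 CPM with DMSO and 105, 131 and 148 CPM with JNJ and was not called (log2 0.45, adjusted p = 0.0608), though its groups did not overlap and it was called with the replicate block (log2 0.44, adjusted p = 0.0139). Hdac1 was also called higher with upper-quartile scaling (adjusted p = 0.0164), library totals (0.00824) or a required mean of 1 CPM (0.0366). The same held in the 24 h libraries alone (0.0387) and without JNJ replicate 1 (0.0367). Hdac2 stood at 368, 358 and 393 CPM with DMSO and 303, 299 and 307 CPM with JNJ. Its groups did not overlap either, and it was called only in the fits to the 24 h libraries alone (log2 -0.30, adjusted p = 0.0386, and 0.0101 with the replicate block; 0.168 over the 12 libraries).

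In the BCL2 family, which sets the threshold of apoptosis, 4 of 15 tested genes rose (26.7%, against 18.1% of all genes) and 3 fell (20%, against 15.1%; median 0.25; 6 fell with the block in the 24 h libraries alone). Bik, Bbc3 and Bmf, killers of the BH3-only class, rose. Bik stood at 0.576, 0.388 and 0.451 CPM with DMSO and 2.67, 4.39 and 2.88 CPM with JNJ (log2 2.80, SE 0.50, adjusted p = 0.00119), Bbc3, also called PUMA, at 12.6, 6.96 and 8.46 CPM with DMSO and 28.4, 29.0 and 27.9 CPM with JNJ (log2 1.60, SE 0.39, adjusted p = 0.00712), and Bmf at 23.9, 28.0 and 25.8 CPM with DMSO and 60.5, 77.4 and 78.5 CPM with JNJ (log2 1.48, SE 0.22, adjusted p = 0.0004). Bok, a relative of BAX, stood at 137, 103 and 100.5 CPM with DMSO and 48.6, 34.5 and 21.5 CPM with JNJ and fell (log2 -1.70, SE 0.26, adjusted p = 0.000552). None of the groups overlapped. Of 18 p53 genes of arrest and repair, 1 rose, 2 fell and 15 were not called (5.56% and 11.1%, below the shares of all genes; median 0.06; 4 each way with the block in the 24 h libraries alone). This list leaves out Cdkn1a and Bbc3, which p53 is also known to induce. Both rose and were counted in other lists. Trp53, which encodes p53, stood at 183, 214 and 217 CPM with DMSO and 82.9, 98.3 and 77.4 CPM with JNJ and fell (log2 -1.25, SE 0.24, adjusted p = 0.00201), as did Eda2r, a receptor gene that p53 induces, at 96.6, 84.2 and 88.5 CPM with DMSO and 43.2, 43.5 and 43.2 CPM with JNJ (log2 -1.05, SE 0.18, adjusted p = 0.000826). Ddb2, a DNA damage sensor gene, stood at 11.1, 8.75 and 3.50 CPM with DMSO and 26.1, 16.3 and 11.2 CPM with JNJ and rose (log2 1.20, SE 0.42, adjusted p = 0.0438). The Ddb2 call was lost in the fit to the 24 h libraries alone (0.0658) and without DMSO replicate 2 (0.0758), DMSO replicate 3 (0.135), JNJ replicate 1 (0.186) or JNJ replicate 2 (0.0695).

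The effects at 24 h and 2 h were set against each other in 1 fit of 12 libraries, in which each time has its own DMSO libraries. At 2 h, 1318 genes rose (9.11%) and 664 fell (4.59%). Of the genes that rose at 24 h, 675 had risen at 2 h, which is 25.8% of the later and 51.2% of the earlier list. Of those that fell, 458 had fallen at 2 h, which is 21.0% and 69.0%. The effects differed for 614 genes (4.24% of those tested), with the 24 h effect higher for 363 (2.51%) and lower for 251 (1.73%). That count was sensitive to single libraries, from 145 without JNJ 24 h replicate 3 to 1156 without JNJ 2 h replicate 3, and it was 2132 with the replicate block.

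Cell cycle genes were 37 of the 251 with a lower effect at 24 h. Of the 171 tested, 8 fell at 2 h, near the 4.59% of all genes, and 8 rose, against 9.11% of all genes. The median at 2 h was -0.17. In 37 of the 171 the 24 h effect was called lower than the 2 h effect, against 1.73% of all genes. Ccne2 was at -0.93 at 2 h and -2.84 at 24 h on the log2 scale (difference -1.91, adjusted p = 0.012). Mcm3 was at -0.43 and -1.99 (difference -1.56, adjusted p = 0.0117), and Hells at -0.32 and -1.92 (-1.60, 0.0093). By contrast, Atoh1 was at -1.29 and -1.08 (difference 0.21, adjusted p = 0.706), Barhl1 at -1.46 and -1.62 (-0.16, 0.865), and Ccnd1 at -1.15 and -1.42 (-0.27, 0.688). For these the difference was not called. The differences of Ccne2, Mcm3 and Hells were called in each of the 12 fits that leave out 1 library.

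Of the 180 neuronal genes, 22 rose at 2 h (against 9.11% of all genes), and the 24 h effect was called higher in 11 (against 2.51%) and lower in 2. Unc13b was at -0.07 and 3.41 (difference 3.47, adjusted p = 0.00143), and Slc17a7 at 1.65 and 4.52 (2.87, 0.00485). Vgf was at 2.88 and 4.19, with no call for the difference (1.31, 0.179). Of the 93 tested genes of other lineages, 8 rose at 2 h, near the 9.11% of all genes, and the 24 h effect was called higher in 8 and lower in 2. Gata2 was at 4.08 and 4.28 on the log2 scale (0.21, 0.867), while H2-Ab1 was at 1.45 and 8.04 (6.59, 0.0113) and Mitf at 0.48 and 2.54 (2.05, 0.00773). The differences of Unc13b, Slc17a7, H2-Ab1 and Mitf were called in all 12 fits without 1 library. Fitted values of H2-Ab1 depend on the prior count, since the solvent is near 0.

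**Figure D5:**
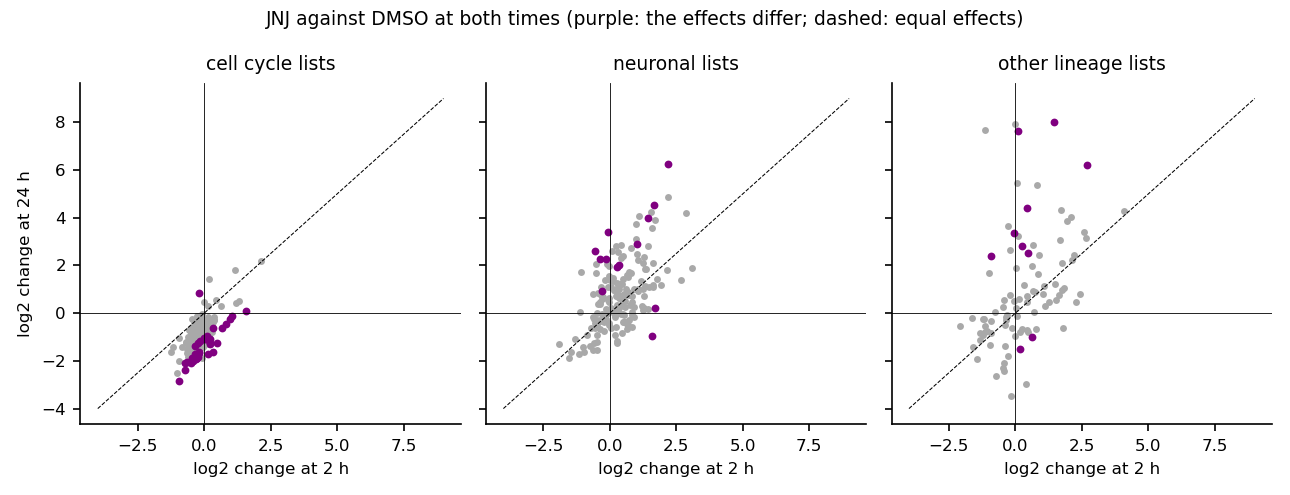
Log2 change with JNJ at 2 h (x axis) and at 24 h (y axis) of the tested members of the cell cycle, neuronal and other lineage lists, 1 point per gene. Purple genes have effects that differ between the times, and the dashed line marks equal effects; 37 cell cycle genes are purple below the line, and 11 neuronal and 8 other lineage genes are purple above it.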

How the data were processed

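STAR 2.5.1b and the mouse build mm9 are named, per the submitters' processing notes. The authors deposited a table of raw counts by gene symbol and library. Per the labels' protocols the kit was TruSeq Stranded mRNA with single-end reads. Not given in the sources used here are the annotation, the strand that was counted and how multi-mapping reads were handled. Counts of paralogs, antisense genes and overlapping genes are therefore uncertain.

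Samples were grouped by their labels. The 12 libraries of DMSO and JNJ at 2 h and 24 h (3 per group) were fitted together with edgeR 4.0.16 in R 4.3.3, with group as the only term. The filter was filterByExpr (minimum count 10, minimum total 15), the scaling was TMM, and the common biological coefficient of variation was 0.294. Two-sided quasi-likelihood tests were adjusted by Benjamini-Hochberg over the 14467 genes tested, with calls at an adjusted p under 0.05. Each SE given is the absolute log2 change divided by the square root of that test's F statistic. It is not a standard error that the model estimates directly. Ratios of pooled counts have exact 95% intervals, which cover counting error only.

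Residuals of same-numbered JNJ and DMSO libraries correlated at 0.566, 0.656 and 0.609 at 24 h, and other pairs at -0.178 or lower. At 2 h the residuals of replicate 1 did not correlate (-0.00469). The labels do not say what a replicate number marks, so the main fit has no block and leaves this pairing out. It called 4791 genes at 24 h, against 6633 with the block over the 12 libraries. A gene given as not called may therefore be called with the block. Where a replicate block moves a list's count by over 1.5 times, the count from at least 1 such fit stands beside it.

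31 lists with 640 genes were written from general knowledge. The members, lists and promoter elements were chosen with earlier results of these data known. Genes named by rule are 11 index genes (Hdac1, Hdac2, Cdkn1a, Cdkn1c, Ccnd1, Ccne2, Mcm3, Gli1, Atoh1, Neurod1, Slc17a7), the 12 largest called rises and falls at a mean level of 5 CPM or more without overlap, and up to 3 called members per list in the main direction and 1 in the other with a mean of at least 1 CPM. A result on a gene that the rule names is not reported here. Promoters and their coordinates are RefSeq's (GRCm38.p6). Other settings were other scalings, filters, tests (DESeq2 1.42.0, limma 3.58.1), thresholds and libraries left out.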

Additional observations from a re-analysis of the deposited data

Results flagged for a closer look

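Of the 114 genes named by rule, 40 had an effect of JNJ at 24 h that differed from the effect at 2 h, by edgeR’s test of the difference itself with adjustment over all genes (adjusted p under 0.05). The rule mostly chose genes for their 24 h effect, which is 1 side of this difference, so their number is a description and supports nothing. The 24 h effect was higher for 20 and lower for 20. Values are log2 differences, 24 h minus 2 h. These genes of the cell cycle had a lower effect at 24 h than at 2 h, by differences of -1.91 in Ccne2, -1.56 in Mcm3, -1.62 in Mcm10, -1.68 in Dna2, -1.38 in Timeless, -1.39 in Rrm2, -1.61 in Tyms, -1.60 in Hells, -1.004 in Chaf1a, -1.57 in Mybl2, -1.43 in Cenpk and -1.41 in Spc24. Of the cell cycle genes, Pttg1, the securin gene, had a higher effect at 24 h, with a difference of 1.02. Neuronal genes had a higher effect at 24 h, by 2.87 in Slc17a7, 1.86 in Mapt, 1.71 in Syt1, 3.47 in Unc13b, 1.68 in Gabrb2, 4.06 in Kcna1 and 2.56 in Kcnh3. Genes of other lineages were higher by 3.52 in Ret, 2.05 in Mitf, 2.56 in Prph, 6.59 in H2-Ab1, 7.55 in Flt4, 3.98 in Ryr1 and 3.38 in Guca1a. The glial transporter Slc1a2 had a difference of -1.67. Of the pathway, apoptosis and p53 lists, the differences were -1.26 in Smo, -1.64 in Hhip, -1.40 in Bok and -0.94 in Eda2r. Among the largest changes at 24 h outside the lists, the differences were 6.77 in Itpr3, 5.08 in Klc3, 5.24 in Scube1, 4.53 in Lrp2, 4.12 in Plk5, -2.69 in Rcbtb2, -2.64 in Lrrc4 and -2.55 in Rdh5. When 1 of the 12 libraries was left out in turn, no difference changed sign, and 15 of the 40 were called in every fit, among them Ccne2, Dna2, Hells, Mcm3, Slc17a7, Unc13b, Mitf and Itpr3. The others lost their call in at least 1 fit. Eda2r was called in 1 of the 12 fits, and Bok, Cenpk, Kcna1 and Kcnh3 in 2. Flt4, H2-Ab1 and Kcna1 are near 0 in the solvent, so their fitted values depend on the prior count.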

How the results depend on the processing

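Over the settings compared, no gene called at 24 h was called in the other direction. With the 24 h libraries only and a replicate block, 8948 genes were called at 24 h, 4565 higher and 4383 lower, and 97 neuronal list genes rose. At an adjusted p under 0.01 there were 2716 calls, 1563 higher and 1153 lower, with 40 neuronal genes higher. Leaving out 1 library gave 3393 to 4021 calls, 1967 to 2266 higher and 1426 to 1760 lower. The count of genes whose effect differed between the times was 1478 with DESeq2, 2132 with the replicate block over 12 libraries, 50 at an adjusted p under 0.01, and 145 to 1156 without 1 library. Where a mean level of 1 CPM was required, fewer genes were tested and 17 of the other lineage lists rose. Cdkn1c had a log2 change of -0.0834 without JNJ 24 h replicate 1 and up to 6.96 without DMSO 24 h replicate 1. With libraries scaled by the upper quartile 63.8% of calls were higher, against 54.5%, and the median of all genes was 0.12. Except for the change of filter, the causes were not tested. The replicate block over the 12 libraries kept all 4791 calls and added Cdkn1c, Hdac1 and Neurod1 among the genes named by rule.

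Of the 114 genes named by rule, 110 were called, and 97 of these kept their call in every other setting run for them (at most 16 each). The other 13 are Cbln3, Cdon, Cspg4, Ddb2, Gli1, Grhl3, Hdac9, Lmo2, Rb1, Shank1, Stmn2, Sv2b and Vsnl1. Leaving out 1 library moved 17 named genes by over 1.5 times. The libraries of 23461048 to 37888863 counts cannot resolve levels under 0.0776 to 0.118 CPM.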
